A study of Homo sapiens with 24 samples.

Results

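The genes described here are 9 core targets of the transcription factor NRF2, namely NQO1, HMOX1, TXNRD1, GCLC, GCLM, SRXN1, ME1, PIR and OSGIN1. They were taken by name from the count matrix, as 9 of its 58051 genes, and the rule for taking them used no measured level. The members and the wider lists were nonetheless chosen with earlier results of these data known. Counts set beside the share of all genes are therefore descriptions and not tests. All 9 passed the filter on low counts, and each also passed it when any 1 of the 8 groups was left out. The cells were LUHMES, a conditionally immortalised line from human embryonic midbrain, so that every culture came from 1 line. All cultures were differentiated into neurons with tetracycline, which shuts off the v-myc that keeps the line dividing, and with cAMP and GDNF, and all carried 1% DMSO for 6 h. The control group received DMSO alone. The other groups each received 1 of 7 toxicants. MS275, or entinostat, which blocks class I histone deacetylases, was given at 5 µM, as were the redox-cycling herbicide paraquat and MPP (methylphenylpyridinium), which dopamine neurons take up. Ziram, a fungicide made of zinc and dithiocarbamate, was given at 2 µM, the complex I blocker rotenone and the hydroxydopamine 6-HD at 1 µM each and methylmercury at 0.5 µM. Each of the 8 groups had 3 libraries of polyadenylated RNA, 24 in all.

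NRF2, encoded by NFE2L2, is held low in unstressed cells by KEAP1, an adaptor that hands it to a ubiquitin ligase for destruction. Electrophiles, oxidants and metals modify reactive cysteines of KEAP1, newly made NRF2 escapes destruction, and it pairs with small MAF proteins at antioxidant response elements in the DNA of its target genes. BACH1 is a repressor that competes for such elements, most of all at HMOX1. The targets make glutathione, keep thioredoxin reduced, supply NADPH, clear quinones and break down heme. In brain tissue the pathway is known to be more active in astrocytes than in mature neurons.

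The core of the antioxidant response element, TGACNNNGC, was looked for on both strands around the transcription starts, since the members are defined as targets of a factor that binds it. RefSeq start windows of GRCh38.p14, from 250 bases before a start to 50 after it, were at hand for 8 of the 9 genes. The motif, read as TGACNNNGC or as its complement GCNNNGTCA, was found in 5 of the 9 windows of these genes, which belong to 4 of the 8 genes, and in 13.3% of all 35116 windows. The matches are printed 5′ to 3′ along the gene, the motif in capitals with 10 bases on either side, because they are the stretches in which the members can be compared letter by letter.
TXNRD1, first start, chr12:104215670-104215698, plus strand: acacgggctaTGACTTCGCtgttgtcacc
TXNRD1, second start, chr12:104286920-104286948, plus strand: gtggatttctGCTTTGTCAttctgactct
GCLM, chr1:93909446-93909474, minus strand: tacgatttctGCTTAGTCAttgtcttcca
ME1, chr6:83431170-83431198, minus strand: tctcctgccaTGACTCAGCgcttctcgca
PIR, chrX:15493289-15493317, minus strand: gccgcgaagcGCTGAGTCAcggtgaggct
The TXNRD1 matches lay 99 and 102 bases before their starts, that of GCLM 34 bases before and that of ME1 137 bases before. The PIR match lay 26 bases after the start. The first TXNRD1 window and the ME1 window each held 2 matches, of which the more distant upstream one is printed. The windows of NQO1, GCLC, SRXN1 and OSGIN1 did not hold these letters, which says nothing of elements farther away. Members with a match and members without one were found both among the genes that rose with methylmercury and among those that did not.

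Library totals ranged from 9.69 to 46.9 megareads counted to genes. Levels are given as CPM, the reads of a gene per megaread of the library total after TMM scaling. A gene is said to have risen or fallen where the quasi-likelihood test of edgeR gave a Benjamini-Hochberg adjusted p under 0.05 over 18852 genes, and the adjusted p below is from that test throughout. The labels call the 3 libraries of a group biological samples, and the p-values measure differences against the spread between such samples, pooled over all 8 groups. All 10 pan-neuronal markers reached 1 CPM in DMSO. Of 10 dopaminergic markers, 6 did: the dopamine transporter SLC6A3 stood at 635 CPM and tyrosine hydroxylase, TH, at 50.8 CPM, but the midbrain factors LMX1A and FOXA2 had 0 reads and the vesicular transporter SLC18A2 stood at 0.319 CPM. The proliferation gene TOP2A stood at 141 CPM and OLIG2, a factor of the oligodendrocyte lineage, at 114 CPM. The astrocyte marker GFAP stood at 0.0197 CPM.

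In DMSO the members spanned a wide range of levels. Per kilobase of exon, TXNRD1, the cytosolic thioredoxin reductase, was highest at 43.5 ± 1.81 CPM per kb (SD, n = 3). HMOX1, the inducible heme oxygenase, followed at 10.3 ± 0.447 CPM per kb and NQO1, a quinone reductase, at 8.86 ± 0.761. The catalytic subunit of glutamate-cysteine ligase, GCLC, stood at 4.61 ± 0.172 CPM per kb and its modifier subunit GCLM at 2.44 ± 0.502. PIR (pirin, an iron-containing nuclear protein) and ME1 (cytosolic malic enzyme, a source of NADPH) were close to each other, at 1.54 ± 0.189 and 1.46 ± 0.442 CPM per kb. SRXN1, sulfiredoxin, which repairs overoxidised peroxiredoxins, stood at 0.315 ± 0.142 CPM per kb. OSGIN1, an oxidative stress-induced growth inhibitor, was almost unread, with 10 reads over the 3 DMSO libraries and 0.0478 ± 0.0426 CPM per kb. SRXN1 and OSGIN1 therefore carry the widest errors below.

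**Figure D1:**
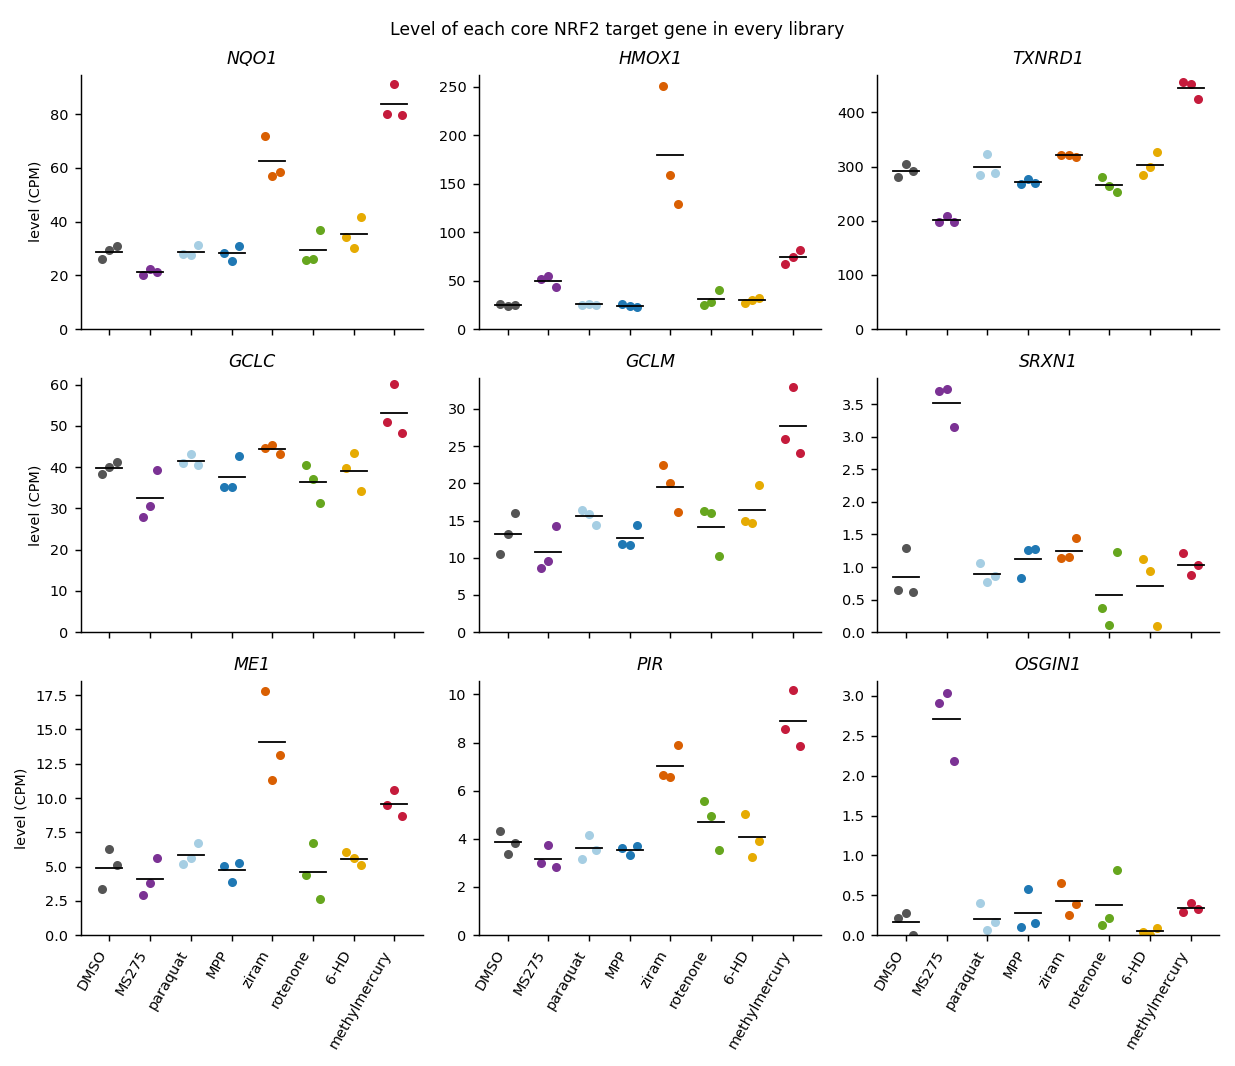
Level of each member in every library, in CPM on a linear axis from 0, with 1 panel per gene and 1 column per group; points are libraries and bars are group means. NQO1, HMOX1, ME1 and PIR are high in the ziram and methylmercury libraries, while SRXN1 and OSGIN1 are high in the MS275 libraries.

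Methylmercury, an organic mercury compound that binds thiols, raised 5 of the 9 members and lowered none. NQO1, HMOX1, TXNRD1, GCLM and PIR rose, by 1.52 to 3.01 times. Over all genes tested, 0.286% changed with methylmercury and 0.223% rose. All 3 methylmercury libraries lay above all 3 DMSO libraries for 8 of the 9 members, against 9.9% of all genes, and the members' median difference was 1.04 on the log2 scale against -0.01 over all genes. In bulk RNA such as this, a change in the share of a cell type and a change in RNA per cell cannot be told apart.

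Ziram raised 4 of the 9 members and lowered none. HMOX1, NQO1, ME1 and PIR rose, by 1.83 to 7.27 times. Over all genes 0.53% changed with ziram and 0.408% rose. For 7 of the 9 members the 3 ziram libraries lay above the 3 DMSO libraries, against 11% of all genes, and the median difference was 0.87 against 0.01 over all genes. Both compounds were compared with the same 3 DMSO libraries.

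**Figure D2:**
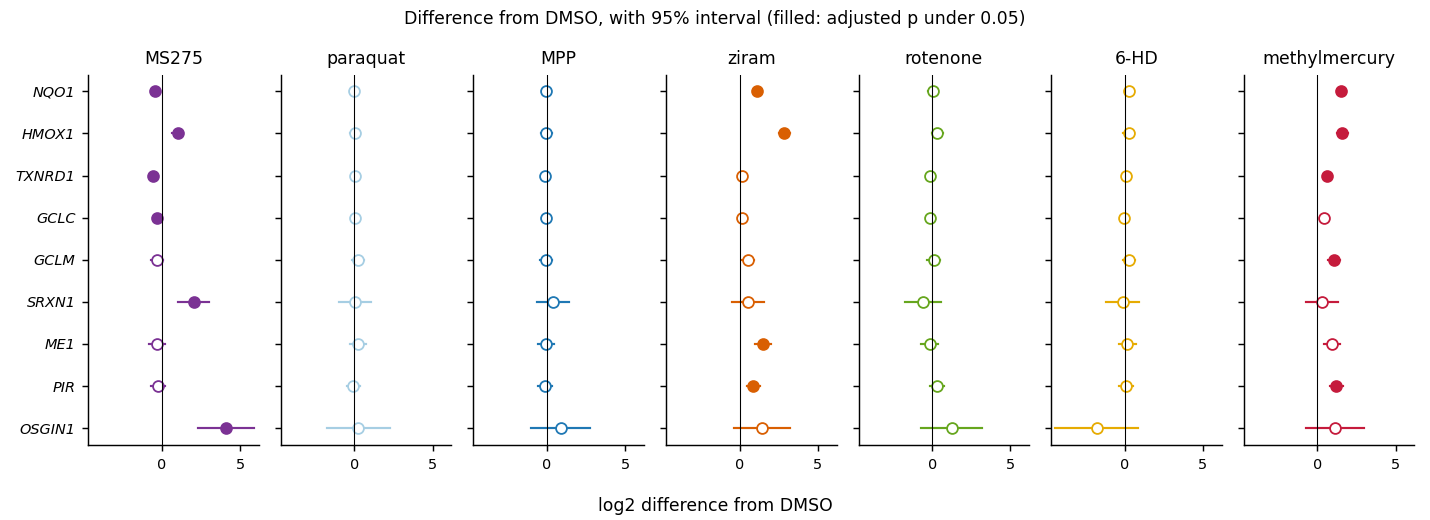
Difference of each member from DMSO on the log2 scale, with 1 panel per toxicant; points are edgeR estimates, lines are 95% intervals, and filled points have an adjusted p under 0.05. Filled points lie to the right of 0 for 4 members in ziram and 5 in methylmercury, on both sides of 0 in MS275, and there are 0 in paraquat, MPP, rotenone and 6-HD.

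HMOX1 opens the porphyrin ring of heme and releases iron, carbon monoxide and biliverdin. It lies on chromosome 22 (35380361 to 35394214, plus strand, GRCh38). Its level in the 3 DMSO libraries was 26, 24 and 24.3 CPM. In the ziram libraries it was 251, 159 and 129 CPM, in the methylmercury libraries 67.2, 74.2 and 81.8 CPM, and in the MS275 libraries 51.5, 54.3 and 43.3 CPM. These 4 groups did not overlap with one another, so that the order was ziram, methylmercury, MS275 and then DMSO. HMOX1 rose by 2.86 ± 0.17 (log2 ± SE; 7.27-fold; adjusted p = 3.54e-13) with ziram. With methylmercury the rise was 1.59 ± 0.17 (3.01-fold; adjusted p = 7.24e-07) and with MS275 it was 1.01 ± 0.17 (2.02-fold; adjusted p = 1.02e-05). It was the only member that rose in all 3 of these groups. Ziram replicate 1 stood well above the other ziram libraries, and without it the call remained, as it did under all 30 alternatives.

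NQO1 reduces quinones by transferring an electron pair, which avoids the reactive semiquinone. The gene lies on chromosome 16 (69706996 to 69726951, minus strand). Its levels were 26.1, 29.3 and 31 CPM in DMSO, 71.7, 57.1 and 58.5 CPM in ziram and 80.2, 91.2 and 79.5 CPM in methylmercury. Both toxicant groups lay clear of DMSO and of each other. NQO1 rose 2.89-fold with methylmercury (1.53 ± 0.13; adjusted p = 1.32e-08) and 2.16-fold with ziram (1.11 ± 0.13; adjusted p = 1.33e-06). In MS275 its levels were 20.2, 22.4 and 21.3 CPM, all below DMSO. There NQO1 fell by 0.44 ± 0.13 on the log2 scale (0.738 of DMSO; adjusted p = 0.00749), a call that was lost without DMSO replicate 3 (adjusted p = 0.0558).

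PIR and ME1 were weakly expressed members. PIR, on the X chromosome (15384799 to 15493564, minus strand), stood at 4.34, 3.39 and 3.84 CPM in DMSO, 6.63, 6.58 and 7.88 CPM in ziram and 8.58, 10.2 and 7.87 CPM in methylmercury. The ziram and methylmercury libraries overlapped each other, and both lay above DMSO. PIR rose 2.31-fold with methylmercury (1.21 ± 0.20; adjusted p = 0.00447) and 1.83-fold with ziram (0.87 ± 0.20; adjusted p = 0.0357). The ziram call for PIR was held in 20 of 30 alternatives and was lost without DMSO replicate 1, 2 or 3 (adjusted p = 0.0838, 0.315 and 0.169), without ziram replicate 1, 2 or 3 (0.134, 0.0886 and 0.212), without MPP replicate 2 (0.0519), without methylmercury replicate 1 (0.0514) and without the filter on low counts (0.0648). With methylmercury it was lost without DMSO replicate 2 (0.0753) or methylmercury replicate 2 (0.0687).

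ME1, on chromosome 6 (83210389 to 83431071, minus strand), turns malate into pyruvate and so makes NADPH. It stood at 3.34, 6.3 and 5.12 CPM in DMSO, 17.8, 11.3 and 13.1 CPM in ziram and 9.46, 10.6 and 8.66 CPM in methylmercury. The 3 groups did not overlap, with ziram highest. ME1 rose 2.8-fold with ziram (1.48 ± 0.24; adjusted p = 0.000643). For methylmercury the value was 1.9-fold (0.93 ± 0.25, 95% interval 0.43 to 1.43), with an adjusted p of 0.103 in edgeR and 0.018 in DESeq2. In edgeR it was 0.00547 without the filter on low counts and 0.0495 without rotenone replicate 1.

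TXNRD1 uses NADPH to keep thioredoxin reduced, and its selenocysteine is a known site of attack by mercury compounds. It lies on chromosome 12 (104215779 to 104350305, plus strand). Its levels were 280, 304 and 291 CPM in DMSO, 457, 452 and 424 CPM in methylmercury, 322, 322 and 318 CPM in ziram and 197, 209 and 197 CPM in MS275. Each toxicant group was clear of DMSO, and the spread within groups was small. TXNRD1 rose 1.52-fold with methylmercury (0.61 ± 0.07; adjusted p = 5.77e-06). It fell by 0.54 ± 0.07 on the log2 scale with MS275, to 0.69 of DMSO (adjusted p = 4.2e-07). In ziram its difference was 0.14, with a 95% interval from -0.01 to 0.28 and an adjusted p of 0.79.

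SRXN1, the other member that acts on the thioredoxin and peroxiredoxin cycle, lies on chromosome 20 (646615 to 653370, minus strand). It stood at 0.64, 1.29 and 0.621 CPM in DMSO, from 9, 32 and 21 reads. In MS275 it stood at 3.7, 3.73 and 3.15 CPM, from 89, 113 and 46 reads, with no overlap. SRXN1 rose 4.1-fold with MS275 (2.04 ± 0.49; adjusted p = 0.00109). In ziram the libraries stood at 1.14, 1.16 and 1.45 CPM and in methylmercury at 1.21, 0.875 and 1.03 CPM, both overlapping DMSO. The intervals ran from -0.46 to 1.54 for ziram and from -0.74 to 1.32 for methylmercury (adjusted p = 0.982 and 0.892). At this depth a change of 2-fold in SRXN1 was not excluded in either group. SRXN1 shares 85% of its exon bases with AL121758.1, a gene annotated on the same strand, to which 21 reads were counted over all libraries against 741 for SRXN1. How reads that fell in both were counted is not stated in these sources.

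GCLM and GCLC encode the 2 subunits of glutamate-cysteine ligase, the first and rate-limiting enzyme of glutathione synthesis, and no test compared one gene with the other. GCLM, on chromosome 1 (93885205 to 93909456, minus strand), stood at 10.5, 13.2 and 16 CPM in DMSO and at 25.9, 33 and 24.1 CPM in methylmercury, without overlap. GCLM rose 2.06-fold there (1.04 ± 0.18; adjusted p = 0.00778). The call was lost without DMSO replicate 1 (0.0748), DMSO replicate 2 (0.0753) or methylmercury replicate 2 (0.104). In ziram GCLM stood at 22.4, 20 and 16.1 CPM, just above the highest DMSO library, and its difference was 0.54 (0.17 to 0.92; adjusted p = 0.341, and 0.0202 with the 2 groups fitted alone).

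GCLC, on chromosome 6 (53497341 to 53616970, minus strand), stood at 38.3, 40.1 and 41.2 CPM in DMSO, 51, 60.1 and 48.2 CPM in methylmercury and 44.6, 45.3 and 43.1 CPM in ziram. Both toxicant groups lay above DMSO in every library. The differences were 0.41 with methylmercury (0.16 to 0.65; adjusted p = 0.145, and 0.0355 in DESeq2) and 0.15 with ziram (-0.09 to 0.39; adjusted p = 0.948). In MS275 GCLC stood at 27.8, 30.6 and 39.3 CPM, the last within the DMSO range. It fell by 0.30 ± 0.12 on the log2 scale there (0.811 of DMSO; adjusted p = 0.0438), and this call held in 13 of 30 alternatives. It was lost with DESeq2 (0.0975), with RLE size factors (0.107), with library totals only (0.0642), with the 2 groups fitted alone (0.0696) and without MS275 replicate 1 (0.304) or 2 (0.141), or DMSO replicate 2 (0.114) or 3 (0.145). Leaving out any of 8 libraries of other toxicants also ended it, with adjusted p from 0.0539 to 0.0657.

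OSGIN1, on chromosome 16 (83948282 to 83966332, plus strand), had 3, 7 and 0 reads in the DMSO libraries and 70, 92 and 32 in MS275. The MS275 levels were 2.91, 3.04 and 2.19 CPM against 0.213, 0.283 and 0 CPM, where the 0 allows up to 0.0887 CPM by counting error alone. OSGIN1 rose 17.4-fold with MS275 (4.12 ± 0.87; 95% interval 2.34 to 5.90; adjusted p = 0.000278). On the log2 scale this rise was 3.41 without DMSO replicate 3 and 5.11 without DMSO replicate 2, and the call remained in both. In the other 6 toxicants its libraries held from 0 to 20 reads. Its intervals there were wide, from -0.33 to 3.24 with ziram and from -0.72 to 3.00 with methylmercury. It shares 13.9% of its exon bases with AC009119.2 on the same strand, which had 70 reads in all against 323 for OSGIN1.

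The response to methylmercury was then set against that to ziram, at their different doses of 0.5 and 2 µM. HMOX1 and TXNRD1 differed between the compounds, in opposite directions, where 1.09% of all genes differed. HMOX1 was lower with methylmercury by 1.27 ± 0.16 on the log2 scale, that is -1.27 for methylmercury minus ziram (95% interval -1.59 to -0.95; adjusted p = 1.03e-05). TXNRD1 was higher with methylmercury by 0.47 ± 0.07 (0.33 to 0.62; adjusted p = 0.000195). Both calls held in 30 of 30 alternatives. NQO1 and GCLM were nominally higher with methylmercury, by 0.42 (0.17 to 0.67) and 0.50 (0.13 to 0.86), and ME1 lower by a value of -0.56 (-1.03 to -0.08), with adjusted p of 0.104, 0.205 and 0.306. GCLC was also nominally higher with methylmercury, by 0.26 (0.02 to 0.50), with an adjusted p of 0.368. For NQO1 the adjusted p was 0.0327 in DESeq2, 0.0471 with the 2 groups fitted alone and 0.0442 without rotenone replicate 1. PIR differed by 0.33 (-0.06 to 0.73; adjusted p = 0.517). This comparison was added after the differences from DMSO had been seen.

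**Figure D3:**
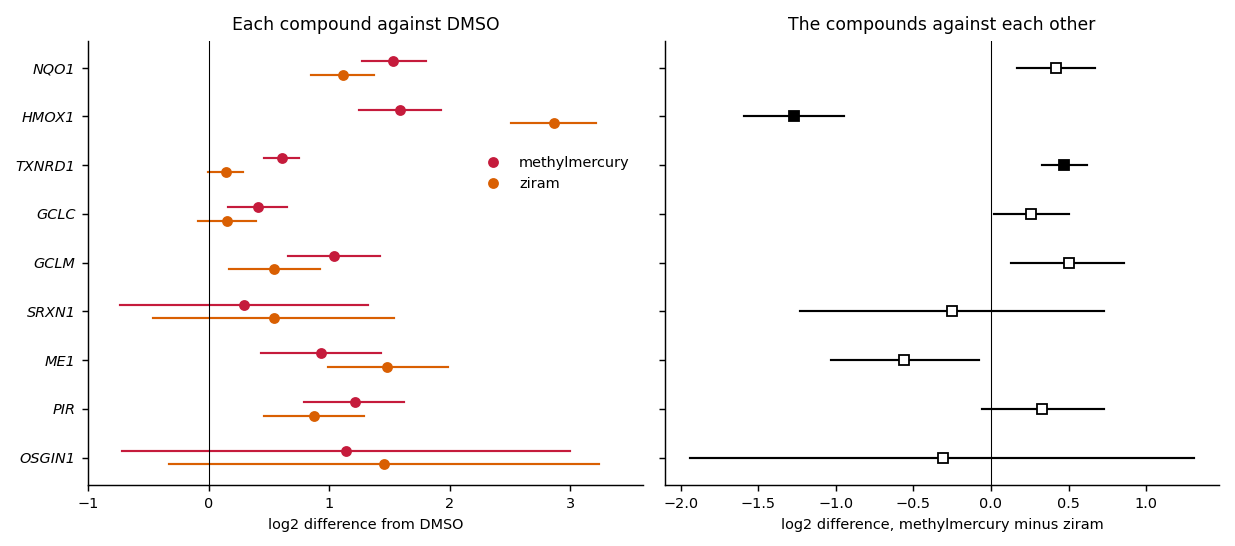
Left, difference of each member from DMSO in methylmercury and ziram on the log2 scale; right, methylmercury minus ziram from the same edgeR fit, with filled squares for an adjusted p under 0.05; lines are 95% intervals. The HMOX1 square lies at -1.27 and the TXNRD1 square at 0.47, the only filled squares.

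Other lists of stress genes were counted against DMSO in both groups, and the lists were not tested between the compounds. With ziram, 9 of 9 tested genes of a list of metallothioneins and zinc transport rose, 4 of 9 heat shock genes and 5 of 12 ATF4 targets. With methylmercury the counts were 5 of 9, 1 of 9 and 0 of 12. Of all genes, 0.408% rose with ziram and 0.223% with methylmercury. Some metallothionein genes stood at 0 CPM in every DMSO library. Whether these passed the filter on low counts only through ziram was not checked. Markers of microglia and fibroblasts summed to 4.2 to 4.76 CPM in DMSO, 5.62 to 5.85 CPM in ziram and 5.25 to 7.26 CPM in methylmercury, and 0 of the 5 tested passed in either. Astrocyte and oligodendrocyte markers summed to 128 to 142 CPM in DMSO, 127 to 146 CPM in ziram and 103 to 118 CPM in methylmercury, with 0 of 6 changed and MOG at 0 reads in all 3 groups. Neural precursor and cycling markers summed to 326 to 350 CPM in DMSO, 372 to 396 CPM in ziram and 372 to 491 CPM in methylmercury. Of these 9, 0 changed with ziram and 2 rose with methylmercury, the cell cycle genes TOP2A, 1.44-fold, and CDK1, 1.61-fold (both adjusted p = 0.0365). Their part in the results was not tested.

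MS275 split the members. HMOX1, SRXN1 and OSGIN1 rose, NQO1, TXNRD1 and GCLC fell, and GCLM, ME1 and PIR did not pass the test. These 6 of 9 stand beside 43.2% of all genes that changed with MS275, 20.1% upward and 23% downward. The members' median was -0.30 on the log2 scale against 0.04 over all genes. GCLM stood at 8.6, 9.6 and 14.3 CPM, ME1 at 2.95, 3.79 and 5.62 CPM and PIR at 2.99, 3.73 and 2.81 CPM, each overlapping DMSO. Their differences were -0.33 (-0.72 to 0.06; adjusted p = 0.175), -0.31 (-0.84 to 0.21; 0.35) and -0.26 (-0.69 to 0.18; 0.356).

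MS275 replicate 3 stood apart from replicates 1 and 2 in its counts over genes, with a chi-square per degree of freedom of 21.3 and 22.5 against 6.06 between the other two. Without it the 3 rises remained and GCLM passed as well (-0.56; adjusted p = 0.0226). Markers of other cell types moved with this group. Microglia and fibroblast markers summed to 23.7 to 26.3 CPM in MS275, and of 8 listed and 5 tested, 4 rose. Most of that sum was COL1A1, which went from 1.21 to 10.8 CPM, and LUM, from 2.14 to 10.1 CPM. Astrocyte and oligodendrocyte markers summed to 152 to 179 CPM, and of 8 listed and 6 tested, 5 rose, with MOG at 0 reads. Most of their sum in DMSO was OLIG2, at 114 CPM, which was the tested marker that did not rise. Of all genes 20.1% rose with MS275. Neural precursor and cycling markers summed to 326 to 350 CPM in DMSO and 406 to 448 CPM in MS275, where 5 of 9 rose and 1 fell, the cell cycle gene CCNB1, to 0.484 of DMSO. Dopaminergic markers summed to 649 to 768 CPM in DMSO and 1036 to 1248 CPM in MS275, with 5 of 8 higher and 1 lower. Most of the dopaminergic sum was SLC6A3, at 635 CPM in DMSO and 1010 CPM in MS275. The part of all these markers in the members' changes was not tested.

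Paraquat, MPP, rotenone and 6-HD changed 0 of the 9 members. Of all genes 0% changed with paraquat, 10.8% with MPP, 5.52% with rotenone and 0.0106% with 6-HD. Of the members, 0, 0, 0 and 1 had an unadjusted p under 0.05 in edgeR, in that order, and DESeq2 also called 0 in each. The 1 was NQO1 in 6-HD, at 34.1, 30 and 41.6 CPM, with a difference of 0.28 (0.01 to 0.54; adjusted p = 0.861). Libraries lay clear of all 3 DMSO libraries for 1 member in MPP and 1 in 6-HD, and for 0 in paraquat and rotenone. These were TXNRD1, lower in MPP at 267, 278 and 270 CPM, and HMOX1, higher in 6-HD at 26.9, 29.9 and 31.7 CPM. The share of all genes without overlap was not counted for these groups. A failed test does not show that levels were equal, and the intervals bound what was missed, more closely for some members than for others.

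For HMOX1 the 95% interval ran from -0.29 to 0.39 with paraquat, -0.38 to 0.31 with MPP, -0.03 to 0.67 with rotenone and -0.09 to 0.60 with 6-HD. Each upper bound lies under the 1.25 at which the interval for methylmercury began. The MS275 interval for HMOX1 began at 0.67, above the upper bounds of paraquat, MPP and 6-HD but level with that of rotenone. For NQO1 the upper bounds were 0.26, 0.23, 0.30 and 0.54, against a lower bound of 0.85 for ziram. TXNRD1 was bounded most closely, from -0.11 to 0.18 with paraquat, -0.25 to 0.04 with MPP, -0.28 to 0.01 with rotenone and -0.09 to 0.20 with 6-HD. Other members were bounded loosely. The largest upper bound for PIR was 0.74, with rotenone, above the 0.46 at which its ziram interval began. For GCLM it was 0.67, with 6-HD, against a lower bound of 0.66 for methylmercury. It reached 1.39 for SRXN1 with MPP and 3.19 for OSGIN1 with rotenone. Rises of the size seen elsewhere were not excluded for these members. Paraquat and MPP, both quaternary pyridinium compounds given at 5 µM, differed from each other in 0 of 9 members where 11% of all genes differed. For that difference, MPP minus paraquat, TXNRD1 gave -0.14 (-0.28 to 0.01; adjusted p = 0.225), HMOX1 -0.09 (-0.43 to 0.25; 0.814) and GCLM -0.30 (-0.68 to 0.08; 0.345).

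Within rotenone the libraries were not alike. HMOX1 stood at 25.1, 27.5 and 40.4 CPM and NQO1 at 25.8, 26.2 and 36.7 CPM, with replicate 3 high in both. In the same library GCLC, at 31.3 CPM against 40.5 and 37.1, GCLM, at 10.2 against 16.3 and 16, and ME1, at 2.62 against 4.41 and 6.72, were low. Rotenone replicates 2 and 3 held 9.69 and 12.4 megareads and replicate 1 held 24.7, and replicate 1 differed from replicates 2 and 3 by a chi-square per degree of freedom of 24.5 and 27.6, against 5.36 between these.

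The genes that control the pathway showed few changes outside MS275. Of 15 regulators, 0 changed with ziram, methylmercury, paraquat, rotenone or 6-HD. Of all genes, 0.53%, 0.286%, 0%, 5.52% and 0.0106% changed with these, in that order. At such shares a count of 0 in 15 genes does not set the regulators apart. NFE2L2 itself stood at 66.5 ± 6.91 CPM in DMSO, 70 ± 3.37 CPM in ziram and 70.1 ± 5 CPM in methylmercury (SD, n = 3), a difference of 0.07 in each (adjusted p = 0.999 and 0.852 in edgeR). KEAP1 stood at 95.4 ± 7.96, 98.4 ± 11.1 and 94.9 ± 13 CPM in the same groups, and BACH1 at 87.1 ± 3.73, 97.7 ± 7.58 and 88.5 ± 6.07 CPM. These are levels of RNA, while NRF2 is known to be controlled mainly at the protein. With MPP 2 of the 15 rose, BACH2 by 0.45 and MAFG by 0.33 on the log2 scale, a share near the 10.8% of all genes that changed.

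With MS275, 4 of the 15 regulators rose and 7 fell, where 20.1% of all genes rose and 23% fell with TMM scaling. KEAP1 went from 95.4 CPM in DMSO to 59.8 CPM and fell by 0.67 on the log2 scale (adjusted p = 2.95e-05). NFE2L2 went from 66.5 to 53.6 CPM and fell by 0.32 (adjusted p = 0.013). BACH1 differed by 0.07 (adjusted p = 0.627). The small MAF gene MAFK rose 2.36-fold, from 7.23 to 17.1 CPM. Among the other small MAF genes listed, MAFG fell by 0.27, from 52.1 to 43.3 CPM (adjusted p = 0.0122). MAFF differed by 0.17 and did not pass (adjusted p = 0.291). The NRF2 relatives NFE2L3 and NFE2 rose 2.04-fold and 4.4-fold. For NFE2 this rests on few reads, 2, 17 and 10 in DMSO and 36, 69 and 20 in MS275 (2.14 ± 0.80; adjusted p = 0.0312).

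Beyond the core members, 35 of a list of 37 other NRF2 targets were tested. With methylmercury 0 of 35 changed and the list's median difference was 0.07, against 5 of 9 and 1.04 for the core members. Of all genes 0.286% changed there, so that a count of 0 in 35 does not set this list apart from other genes. With ziram 1 of 35 rose, beside 0.408% of all genes, and the median was -0.05. That gene was SLC7A11, the cystine transporter that feeds glutathione synthesis. SLC7A11 stood at 2.28, 4.6 and 4.02 CPM in DMSO and at 52.1, 34.5 and 29.2 CPM in ziram, a 10.3-fold rise (3.36 ± 0.25; adjusted p = 1.05e-10). In methylmercury it stood at 6.53, 6.86 and 5.1 CPM (0.70; adjusted p = 0.263), lower than in ziram by a difference of -2.66 ± 0.24 (adjusted p = 1.28e-08). In MPP it stood at 13.8, 15.3 and 20.1 CPM and rose 4.34-fold (adjusted p = 8.32e-07). There 0 of the 9 core members changed, while 6 of 12 ATF4 targets rose and 1 fell, beside 10.8% of all genes that changed. What raised SLC7A11 was not tested.

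MS275 raised 7 and lowered 7 of these 35 genes, a share near the 43.2% of all genes that changed, with a median of 0.13 against 0.04 over all genes. The glutathione transferase gene MGST1 rose 2.49-fold, from 5.72 to 14.2 CPM. The efflux transporter gene ABCC3 went from 0, 0 and 6 reads to 134, 90 and 38 reads (adjusted p = 5.08e-05). GSR, the reductase that regenerates glutathione, fell to 0.473 of DMSO and the lipase gene ABHD4 to 0.471. Rotenone raised 1 and lowered 1 of the 35 and MPP raised 1 and lowered 2, shares near the 5.52% and 10.8% of all genes that changed. Paraquat and 6-HD changed 0 of the 35, where 0% and 0.0106% of all genes changed. At an unadjusted p under 0.05 over all genes tested, edgeR counted 182 genes in paraquat and 1074 in 6-HD.

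**Figure D4:**
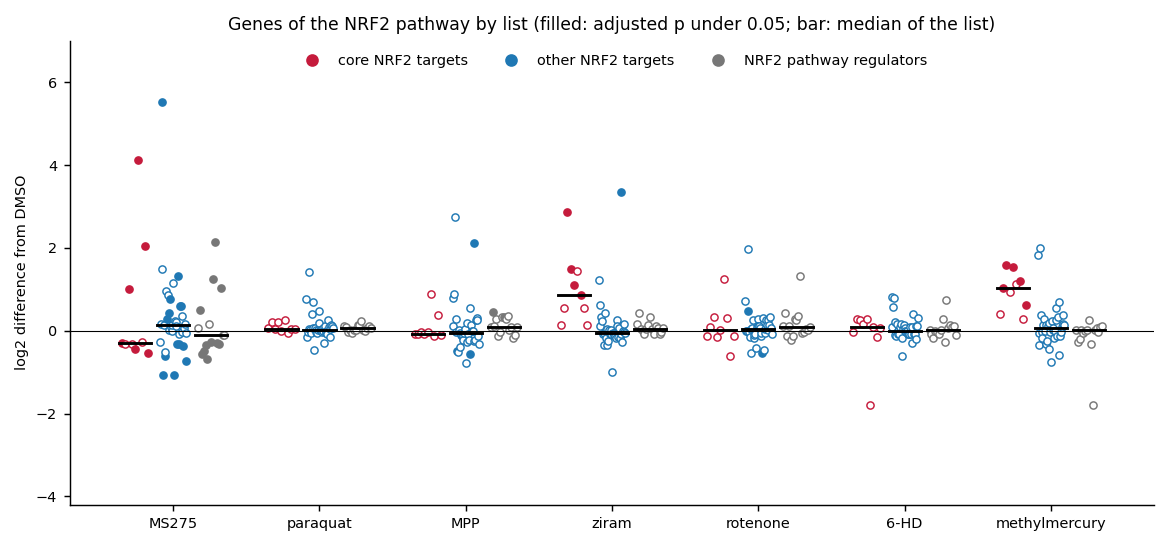
Difference from DMSO on the log2 scale for the 9 core NRF2 targets, 35 other NRF2 targets and 15 regulators of the pathway, by toxicant; each point is a gene, filled points have an edgeR adjusted p under 0.05, and bars are list medians. The core list's bar stands at 0.87 in ziram and 1.04 in methylmercury while the bars of the other 2 lists stay between -0.05 and 0.07 there.

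The members resembled one another to different degrees across the 8 groups. Likeness was measured as the root mean square difference between the group means of 2 genes on the log2 scale, each centred on its own mean, over genes of at least 1 CPM on average, and it is a description of 8 points that share libraries. For NQO1 the 3 nearest of all genes were PIR, GCLM and ME1, at 0.19, 0.27 and 0.28. For PIR they were NQO1 (0.19), GCLM (0.20) and P4HA1 (0.24), and for ME1 the heat shock gene HSPH1 (0.26), NQO1 (0.28) and AC083843.2 (0.28). HMOX1, whose group means span 2.84 on the log2 scale, had as its nearest genes the zinc exporter SLC30A1 at 0.40, A2M at 0.50 and GPNMB at 0.51. The measure is not scaled to the span of a gene, so that wider spans allow larger distances.

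The genes given as nearest to the remaining ranked members lay outside the list. For TXNRD1, which spans 1.14 on this scale, they were CLSPN (0.05), SRSF2 (0.07) and MCM10 (0.09). For GCLM they were FAIM (0.13), DTL and LINC00969 (both 0.15). TXNRD1 nonetheless lay close to other members. Its distance from GCLC was 0.11, the smallest between members. From GCLM it was 0.15, level as printed with DTL and LINC00969. SRXN1 and OSGIN1, the members highest in MS275, lay nearest to AC082651.3 (0.20), HMCN1 and CD101 (both 0.27), and to CYP26B1 (0.36), ADGRD1 (0.39) and AC090197.1 (0.43). GCLC spanned 0.71, too little to be ranked in this way.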

How the data were processed

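Neurons differentiated from LUHMES cells were exposed for 6 h, and RNA was selected for polyadenylated transcripts and depleted of ribosomal RNA, per the labels' protocols. Per the submitters' processing notes, the authors used STAR, HTSeq, DESeq and the build GRCh38; their versions, the annotation, the strand setting and the treatment of shared reads were not given in the sources used here. Raw read counts per gene, as the authors deposited them, were used, and their normalized matrix was not. All 24 columns were matched to samples by name, and 0 were without one.

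Counts were fitted with edgeR 4.0.16 (R 4.3.3; TMM scaling, filterByExpr with a minimum count of 10, 18852 genes kept, 1 coefficient per group over 24 libraries, 16 residual degrees of freedom), and tested by quasi-likelihood, with p-values adjusted after Benjamini and Hochberg at 0.05. Totals were 9.69 to 46.9 megareads, and CPM uses them after TMM scaling; members with few reads are limited by counting error. The 30 alternatives per comparison were RLE size factors, library totals, no filter, DESeq2 1.42.0, fitting the 2 groups alone, a replicate block and leaving out each of the 24 libraries. The procedure was tested on simulated data.

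Gene coordinates and exon lengths came from GENCODE 29 on GRCh38 and start windows from RefSeq on GRCh38.p14. All 9 members are named. Of the regulators and other NRF2 targets, NFE2L2, KEAP1, BACH1 and genes called with a log2 change of at least 1 are named. BACH2 and MAFG, below that size, MAFF, which was not called, and the markers CCNB1, COL1A1 and LUM were added after their values were seen. Of genes like a member, the 3 nearest are given where the member spans at least 1. Members and lists were chosen with earlier results of these data known.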

Additional observations from a re-analysis of the deposited data

How the results depend on the processing

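No member changed direction among its called values under the 30 alternatives. Of the members' values, 2101 kept their side of the threshold, 33 lost a call, 9 gained one and 11 without a call moved by more than their SE. HMOX1 kept its call in MS275, ziram and methylmercury throughout, as did NQO1 in ziram and methylmercury, TXNRD1 in MS275 and methylmercury, SRXN1 and OSGIN1 in MS275 and ME1 in ziram. With 1 library left out, the members called ranged from 4 to 7 in MS275, 3 to 4 in ziram, 3 to 6 in methylmercury and 2 to 3 in methylmercury against ziram, and 0 in paraquat, MPP, rotenone and 6-HD. The methylmercury count was 3 without DMSO replicate 2 and without methylmercury replicate 2. Under the other alternatives it ranged from 5 to 7, that in ziram from 3 to 5 and that in MS275 from 5 to 6.

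The counts over all genes moved more. Ziram called 100 genes, and 160 without the filter, 180 with DESeq2 and 586 with the 2 groups alone. Methylmercury called 54, and 249 without the filter and 310 with DESeq2; methylmercury against ziram called 205, and 334 and 504. Rotenone called 1041 and MPP 2034, and 211 and 3983 with the 2 groups alone. 6-HD called 2, and 18 without the filter, 8 with DESeq2, 1 with the 2 groups alone and 0 with the replicate block; paraquat called 0, and 3 without the filter. Leaving out 1 library gave from 40 to 152 genes with ziram, 7 to 170 with methylmercury, 49 to 367 between these, 6795 to 8825 with MS275, 1142 to 2644 with MPP, 483 to 1616 with rotenone, 0 to 3 with 6-HD and 0 with paraquat; the cause was not tested.

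Same-numbered libraries did not deviate together: over 84 pairs r ranged from -0.12 to 0.11, with a median of -0.01, so that the numbers were not taken to pair samples. With the replicate block, the members called were 5 in MS275, 3 in ziram, 5 in methylmercury, 2 in methylmercury against ziram and 0 in the rest. GCLC in MS275 (adjusted p = 0.0537) and PIR in ziram (0.055) were the calls that the block ended. Low counts limit SRXN1 and OSGIN1.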
